A study of Mus musculus with 4 samples.

Results

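The genes described here carry cytarabine into the cell, phosphorylate it, and dephosphorylate or deaminate it, or make the deoxynucleotides it competes with. They are 10 of the 27998 genes in the deposited table, named for their role, though with earlier results of these data known. Slc29a1 stands for transport, Dck, Cmpk1 and Nme1 for phosphorylation, Dctd, Samhd1 and Nt5c2 for inactivation, and Rrm1, Rrm2 and Rrm2b for ribonucleotide reductase. All 10 were detected above the level of 5 CPM (UMIs of a gene per 1000000 UMIs of the cells summed) that was set for comparing cells.

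Cytarabine is a cytidine analogue that enters cells mainly through the equilibrative nucleoside transporter encoded by Slc29a1. Deoxycytidine kinase (Dck) adds the initial phosphate, which is the rate-limiting step, and the monophosphate kinase Cmpk1 and the diphosphate kinase Nme1 complete the active triphosphate that DNA polymerases insert into replicating DNA. The triphosphate is hydrolysed by Samhd1, a dNTP triphosphohydrolase abundant in myeloid cells, and Dctd and 5'-nucleotidases act on the monophosphate, while ribonucleotide reductase supplies the natural deoxynucleotides, among them the competing dCTP.

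The cells were GFP-positive leukaemia cells sorted from bone marrow of C57BL6 mice aged 11 weeks and profiled singly by 10x 3' RNA sequencing. There were 4 samples, 1 per condition, namely Hif-1a KO with chemotherapy, Hif-1a wt with chemotherapy, Hif-1a KO with PBS and Hif-1a wt with PBS. Cytarabine (100 mg/kg, 5 days) and doxorubicin (3 mg/kg, 3 days) made up the chemotherapy, and bones were collected 3 days after it ended. In every condition the leukaemias came from c-Kit+ marrow of Hif-1alpha Lox/Lox; CreERT2 mice transduced with an MLL-AF9 retrovirus, a fusion oncogene of acute myeloid leukaemia, passed through primary wild-type recipients and transplanted again. The second recipients had 1 mg tamoxifen or vehicle for 5 days from day 10 after transplantation. The labels do not say how many animals gave each sample, whether the leukaemia was a single clone, or which promoter drives CreERT2.

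Barcodes carry 1 of 4 suffixes, and no label ties a suffix to a sample. The 4 suffixes are therefore described as 4 samples with no assigned condition, and no comparison of genotype or treatment was made. Kept cells numbered 1174, 1251, 1625 and 1406 in suffixes 1 to 4, with 7644436 to 9932649 UMIs per suffix, and 11, 8, 6 and 9 of their barcode sequences also occurred under another suffix. The summed marker lists were myeloid: granulocyte precursor genes ranged from 7537 to 17909 CPM over the suffixes, monocyte genes from 3582 to 11094 CPM and neutrophil genes from 924 to 18375 CPM, against 2.52 to 4.33 CPM for erythroid genes, 67.1 to 88.5 CPM for B cell genes, 5.26 to 148 CPM for T and NK cell genes and 87.2 to 105 CPM for stromal and endothelial genes. Of the B cell markers, Pax5 and Ebf1 were at 0, and of the stem and progenitor markers Mecom was at 0. The suffixes differed in makeup before any gene here is considered. Monocyte-like cells numbered 3, 13, 377 and 309 in suffixes 1 to 4, and neutrophil-like cells 5, 11, 142 and 105. Cells low in both cell cycle lists made up 38.3%, 45.2%, 72.2% and 68.5%. A level summed over a suffix cannot tell fewer cells of a type from less RNA per cell.

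The regions upstream of 4 genes are shown, chosen after the motif matches were seen. The levels of these genes are compared below between cycling states or with an interferon-led cluster, as are those of genes not shown. Each is the 250 bases before the RefSeq transcription start in GRCm38.p6, written 5′ to 3′ on the gene's strand, and capitals mark matches on either strand. Capitals are CCAAT (the NF-Y box) in Rrm1 and Rrm2, TTTGAA read on the opposite strand (the cell cycle homology region) in Dck, and GAAA, any 2 bases and GAAA again (the core of the interferon-stimulated response element, ISRE) in Cmpk1. Rrm1 lies at chr7:102441445-102441694 on the plus strand, Rrm2 at chr12:24708004-24708253 on the plus strand, Dck at chr5:88764763-88765012 on the plus strand and Cmpk1 at chr4:114987229-114987478 on the minus strand.
Rrm1: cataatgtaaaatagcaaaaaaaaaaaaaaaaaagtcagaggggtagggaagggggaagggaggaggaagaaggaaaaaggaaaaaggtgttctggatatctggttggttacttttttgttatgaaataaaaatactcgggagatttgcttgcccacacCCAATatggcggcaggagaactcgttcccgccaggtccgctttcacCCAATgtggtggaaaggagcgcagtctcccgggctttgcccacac
Rrm2: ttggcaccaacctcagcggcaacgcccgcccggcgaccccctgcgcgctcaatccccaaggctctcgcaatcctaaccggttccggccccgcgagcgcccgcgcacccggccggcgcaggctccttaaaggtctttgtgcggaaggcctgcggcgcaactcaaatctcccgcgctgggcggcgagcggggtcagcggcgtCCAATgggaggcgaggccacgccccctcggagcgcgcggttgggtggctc
Dck: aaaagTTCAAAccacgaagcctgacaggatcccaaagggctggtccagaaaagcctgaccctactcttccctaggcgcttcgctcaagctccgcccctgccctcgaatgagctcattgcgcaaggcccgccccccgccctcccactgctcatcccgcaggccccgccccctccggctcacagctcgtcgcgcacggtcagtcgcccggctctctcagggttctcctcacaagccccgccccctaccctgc
Cmpk1: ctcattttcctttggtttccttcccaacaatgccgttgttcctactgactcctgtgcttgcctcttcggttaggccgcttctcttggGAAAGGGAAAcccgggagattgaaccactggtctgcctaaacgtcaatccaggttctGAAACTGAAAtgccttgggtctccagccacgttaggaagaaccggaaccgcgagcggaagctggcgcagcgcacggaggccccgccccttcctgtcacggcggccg

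Rrm1 held CCAAT at 91 and 45 bases before its start and Rrm2 at 50, and CCAAT occurred in 33.8% of 32851 RefSeq windows of the same length. Dck held TTTGAA at 245 bases before its start, a motif found in 16.0% of windows. Neither motif was confined to these genes. CCAAT also occurred in windows of Slc29a1, Dctd and Nt5c2, and TTTGAA in windows of Slc29a1 and Nt5c2, which are not printed. Cmpk1 held the ISRE core at 163 and 106 bases before its start, found in 2.98% of windows. The other motifs searched on both strands were TTCNNNGAA (the gamma-activated site, 7.02% of windows), with a match in the Samhd1 window, and the E2F forms TTTCCCGC, TTTGGCGC, TTTCGCGC and TTTGCCGC (1.86% of windows), with none in any window of a member. The motifs overlap each other in no printed window. The 9 matched genes have 25 windows in all, since Slc29a1 has 8 starts, Nt5c2 7, Dctd 3 and Nme1 2, and Rrm2b is not in the RefSeq table used. A match describes letters only, and the printed windows were chosen after the matches were seen.

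Across the suffixes, the levels of Nme1, Dctd, Rrm2 and Samhd1 spread most and those of Cmpk1, Dck, Rrm2b and Nt5c2 least. Slc29a1 (chromosome 17, 45585200 to 45599606, minus strand, GRCm38) stood at 62.7, 50.6, 39.0 and 39.2 CPM in suffixes 1 to 4, with exact Poisson 95% intervals of 57.2 to 68.5 in suffix 1 and 35.2 to 43.0 in suffix 3 that did not meet. All intervals here cover counting error only. Among the kinases, Dck (chromosome 5, 88764996 to 88783281, plus strand) stood at 13.1, 12.6, 11.0 and 12.2 CPM from about 100 UMIs in each suffix, and all of its intervals overlapped. Cmpk1 (chromosome 4, 114959336 to 114987241, minus strand) stood at 181, 182, 163 and 182 CPM, a spread of 0.16 on the log2 scale of CPM + 1 between the highest and the lowest suffix. Nme1 (chromosome 11, 93956979 to 93968521, minus strand) stood at 564, 559, 232 and 257 CPM, so that suffixes 1 and 2 were high and suffixes 3 and 4 low, with a spread of 1.28.

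Among the inactivating enzymes, Dctd and Samhd1 ran in opposite directions over the suffixes. Dctd, the dCMP deaminase (chromosome 8, 48099092 to 48153233, plus strand), stood at 23.2, 19.0, 10.4 and 9.82 CPM, highest in suffix 1 and lowest in suffix 4. Samhd1 (chromosome 2, 157097533 to 157135265, minus strand) stood at 47.2, 42.9, 85.2 and 79.6 CPM and was thus high in suffixes 3 and 4. Nt5c2, a cytosolic nucleotidase (chromosome 19, 46883317 to 47015153, minus strand), stood at 26.7, 31.8, 26.4 and 28.9 CPM, with overlapping intervals. Cda, the cytidine deaminase that inactivates cytarabine itself and is no member here, had 3, 3, 1 and 0 UMIs in suffixes 1 to 4, at most 0.392 CPM, and the 0 in suffix 4 allows up to 0.351 CPM.

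The reductase subunits differed from each other. Rrm1, the large catalytic subunit (chromosome 7, 102441695 to 102469771, plus strand), stood at 111, 83.7, 71.3 and 77.2 CPM. Rrm2, the radical-carrying subunit of dividing cells (chromosome 12, 24708241 to 24714146, plus strand), stood at 212, 150, 100.0 and 96.6 CPM, highest in suffix 1. Rrm2b, its counterpart induced by p53 and used outside S phase (chromosome 15, 37923952 to 37961318, minus strand), stood at 5.63, 4.56, 5.44 and 5.38 CPM with overlapping intervals. As a yardstick, the median spread over 8240 genes with at least 5 CPM was 0.49, and 10.7% of those genes spread by 1 or more, as did Nme1 (1.28), Dctd (1.16) and Rrm2 (1.12). Samhd1 spread by 0.97. Counts of Slc29a1, Nt5c2 and Rrm2b can hold reads of opposite-strand genes (Gm17080, Ina and Gm49085) where strand was not used. Gm17080 itself stood at 0.029 CPM and Ina at 0 CPM, and Gm49085 has no row among the counted genes. Nme1 shares 418 exon bases with the readthrough gene Gm20390, itself at 0.174 CPM.

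The spread of Samhd1 over suffixes was small within S-high cells and within single clusters, while that of Nme1 was present in each set examined. In cells high in S phase genes alone, Samhd1 stood at 46.9, 40.7, 40.5 and 49.6 CPM in suffixes 1 to 4, a spread of 0.29, and its intervals overlapped. In cells high in neither cycle list it stood at 65.6, 55.4, 119 and 112 CPM, a spread of 1.09. Clusters 2, 4, 5, 7 and 9 held at least 30 cells in every suffix, and within them the Samhd1 spread was 0.27 to 0.48. None of those clusters is the monocyte-like one, which lay almost wholly in suffixes 3 and 4. Nme1 stood at 631, 641, 371 and 393 CPM in S-high cells and at 404, 443, 134 and 143 CPM in cells of neither state. Within each of the 5 clusters it was lower in suffixes 3 and 4 than in suffixes 1 and 2, with spreads of at least 0.53. Rrm2 in S-high cells stood at 211, 186, 161 and 141 CPM, a spread of 0.58 against 1.12 over all cells.

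**Figure D1:**
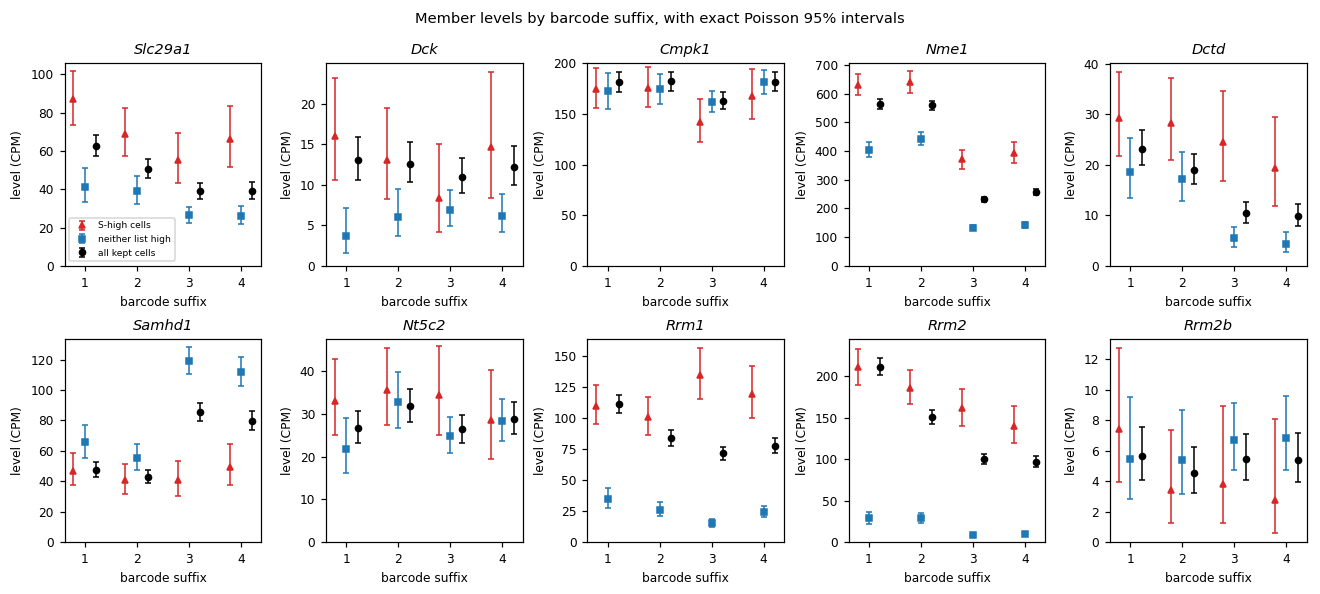
Level of each of the 10 genes (CPM, linear axes from 0, one panel per gene) in barcode suffixes 1 to 4, with exact Poisson 95% intervals; red triangles are S-high cells, blue squares cells high in neither list, black circles all kept cells. In S-high cells Samhd1 lay between 40.5 and 49.6 CPM in every suffix, while in cells of neither state it reached 119 and 112 CPM in suffixes 3 and 4.

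Cycling state was read from 40 S phase genes and 52 G2 and M phase genes, none of them in the nucleoside pathway. Each cell was thinned to 2000 UMIs, and a cell was called high in a list at or above the 75th percentile, which was 6 UMIs for the S list and 8 for the G2M list. Of 5342 cells deep enough, 754 were S-high only (14.1%, median 7673.5 UMIs), 816 were high in both lists (15.3%, 8647 UMIs), 688 were G2M-high only (12.9%, 7178 UMIs) and 3084 were neither (57.7%, 4780 UMIs). These are ranges on a score and not cell types, and 848 and 603 cells lay within 1 UMI of the S and G2M limits. A gene was counted as higher or lower where (CPM + 1) differed at least 1.5-fold the same way in each suffix with 30 cells on both sides. No test was made, because the suffixes are unassigned samples of unlike conditions, and the counts describe size only.

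In S-high cells against cells of neither state, 4 of the 10 genes were counted higher and 0 lower, where 4.1% of 8240 genes were higher and 1.83% lower. Rrm2 stood at 211, 186, 161 and 141 CPM in S-high cells of suffixes 1 to 4, against 28.7, 28.7, 8.39 and 9.31 CPM in cells of neither state, a median log2 ratio of 3.31 with 2.66 to 4.11 over suffixes. Rrm1 stood at 110, 101, 135 and 119 CPM in S-high cells, against 34.6, 26.1, 15.2 and 24.0 CPM in cells of neither state, a median log2 ratio of 2.09. In both subunits the lowest S-high suffix lay above the highest suffix of neither state, as it did for Slc29a1, Dctd and Dck. No share of all genes is given for this trait, so it has no yardstick.

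Transcripts of the transporter Slc29a1 and of the dCMP deaminase Dctd were higher in S-high cells as well. Slc29a1 stood at 86.9, 69.0, 55.1 and 66.2 CPM in S-high cells, against 41.4, 39.2, 26.4 and 26.1 CPM in cells of neither state, a median log2 ratio of 1.04 with 0.80 to 1.31 over suffixes. Dctd stood at 29.2, 28.3, 24.5 and 19.3 CPM in S-high cells, against 18.7, 17.2, 5.48 and 4.34 CPM in cells of neither state, a median log2 ratio of 1.31. The Dctd value depended on the suffixes, being 1.93 without suffix 1 or suffix 2 and 0.69 without suffix 3 or suffix 4. Dctd was counted under 11 of 17 alternative settings, and not with cells thinned to 2000 UMIs (1.84), a pseudocount of 5 CPM (0.98), a filter of 20 CPM, a 2-fold rule, states from a deeper thinning (1.04) or states from the 50th percentile (1.00). Slc29a1 was counted under 13 of 17, and not after thinning (0.99), at 2-fold, or with states from the 50th (0.67) or 90th (0.93) percentile. All of these ratios were above 0.

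Dck, Nme1 and Samhd1 did not meet the size rule in each suffix. Dck lay between 8.41 CPM in suffix 3 and 16.0 CPM in suffix 1 in S-high cells, against 3.64 to 6.84 CPM in cells of neither state, with log2 ratios of 1.87, 0.99, 0.26 and 1.12 in suffixes 1 to 4. Leaving out suffix 3, which held 11 Dck UMIs in S-high cells, would count Dck as higher at a median of 1.12. Nme1 had a median log2 ratio of 1.05 with 0.53 in suffix 2 as the lowest, and was counted higher without that suffix (1.46). Samhd1 had a median of -0.81, with -0.48, -0.44, -1.53 and -1.15 in suffixes 1 to 4. Cmpk1 was nearly level (167 CPM in S-high cells, against 172 CPM in cells of neither state), as was Nt5c2 (33.3 and 27.0 CPM).

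In cells high in both lists, Dck was higher and Samhd1 lower than in cells of neither state. There 3 of the 10 genes were higher and 1 lower, where 6.52% of genes were higher and 4.26% lower. Dck stood at 22.2, 24.5, 27.9 and 35.3 CPM in these cells, against 3.64, 6.05, 6.84 and 6.20 CPM in cells of neither state, a median log2 ratio of 2.10 with 1.86 to 2.33 over suffixes. Samhd1 stood at 34.1, 29.9, 22.6 and 24.8 CPM, against 65.6, 55.4, 119 and 112 CPM, a median log2 ratio of -1.53 that was -2.13 without suffix 1 or 2 and -0.93 without suffix 3 or 4. Rrm1 (2.76) and Rrm2 (4.50) were higher in every suffix, the Rrm2 value being 5.17 without suffix 1 or 2 and 3.84 without suffix 3 or 4. Slc29a1 (1.15) and Nme1 (1.23) were not counted, with suffix 2 under the limit in each, and without that suffix they were counted at 1.36 and 1.68.

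In G2M-high cells, 2 of the 10 genes were higher and 1 lower, where 3.69% of genes were higher and 2.01% lower. Rrm1 stood at 103 CPM in G2M-high cells and 22.7 CPM in cells of neither state, a median log2 ratio of 2.06. Rrm2 stood at 117 CPM in G2M-high cells and 15.4 CPM in cells of neither state, a ratio of 2.74 that was 3.38 without suffix 1 or 2 and 2.10 without suffix 3 or 4. Samhd1 stood at 37.1 CPM in G2M-high cells and 97.1 CPM in cells of neither state, a ratio of -1.16. Dck, at 9.84 and 6.06 CPM in these sets, was not counted, and without suffix 4 it was counted higher at 0.80. Slc29a1 at 37.8 and 30.8 CPM was not counted either.

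Over 7 bins of increasing S-list UMIs, Rrm2 climbed most and Samhd1 declined. Rrm2 stood at 7.4, 11.0, 28.7, 106, 186, 337 and 492 CPM in cells with 0, 1, 2 to 3, 4 to 5, 6 to 8, 9 to 12 and 13 to 29 S-list UMIs. Dck stood at 4.4, 5.7, 6.3, 10.9, 15.4, 22.6 and 29.7 CPM in the same bins, and Slc29a1 at 27.1, 27.0, 30.5, 44.4, 59.1, 77.6 and 88.2 CPM. Samhd1 stood at 133, 105, 69.3, 43.6, 37.1, 34.1 and 35.8 CPM, so that it levelled off from 4 to 5 UMIs onward. Cmpk1 kept between 169 and 186 CPM and Nt5c2 between 21.1 and 31.3 CPM. Over the G2M-list bins, Dctd and Slc29a1 were highest at 9 to 12 UMIs (26.2 and 63.7 CPM) and lower at 13 to 61 UMIs (13.7 and 52.1 CPM). The bins pool the suffixes, whose cells are spread unevenly over them, and the part of depth and makeup in these series was not tested.

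**Figure D2:**
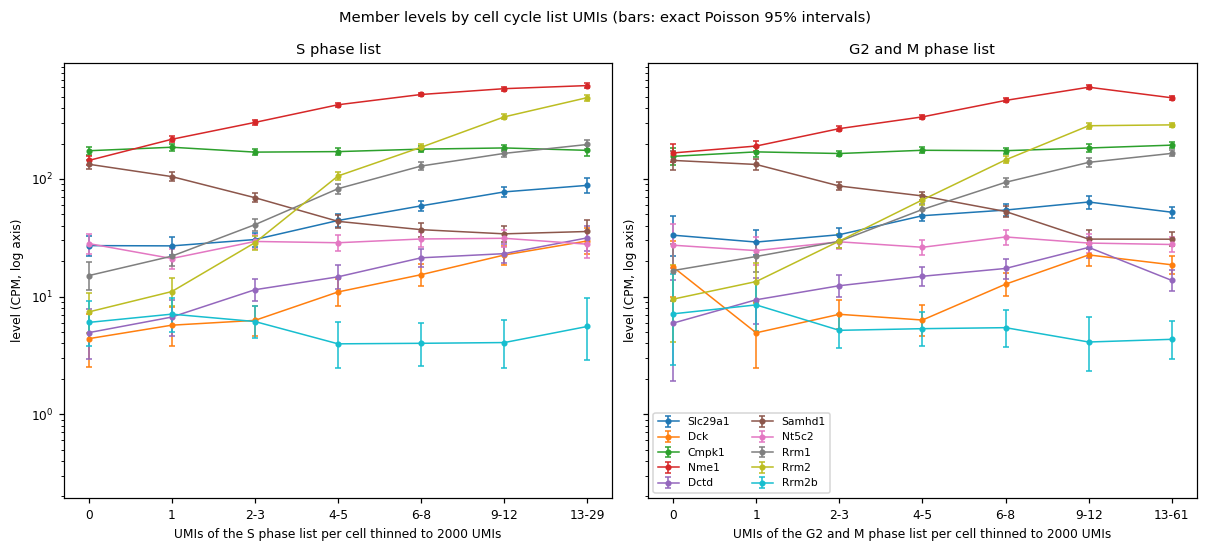
Level of the 10 genes (CPM, log axis) in cells binned by UMIs of the S phase list (left) and of the G2 and M phase list (right) after thinning to 2000 UMIs; bars are exact Poisson 95% intervals, colours are genes. Rrm2 climbed to 492 CPM over the S-list bins, Samhd1 declined to 35.8 CPM, and Cmpk1 stayed between 169 and 186 CPM.

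Every gene of the wider nucleoside pathway list that was counted in S-high cells was higher there. Of its 53 genes, 36 reached 5 CPM, and in S-high cells against cells of neither state 12 were higher and 0 lower. Over all 8240 genes, 4.1% were higher and 1.83% lower. The median log2 ratio of the 36 genes was 0.63, against -0.04 over all genes. Outside the 10 genes the higher ones were the thymidylate genes Tk1 (3.41), Tyms (2.18), Dut (2.02) and Dtymk (1.32), the dCTP pyrophosphatase Dctpp1 (1.37), the CTP synthase Ctps (1.34), and Cad (1.26) and Umps (0.84) of pyrimidine synthesis. In cells high in both lists 11 of the 36 were higher and 2 lower, where 6.52% of all genes were higher and 4.26% lower. Nt5c3b, a nucleotidase (1.16), was among the higher, and the uridine kinase relative Uckl1 (-0.78) was lower beside Samhd1. In G2M-high cells 5 of the 36 were higher and 1 lower, Samhd1 being the lower one, where 3.69% of all genes were higher and 2.01% lower.

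By their markers, 4 of the 14 clusters could be named. The pathway genes were kept out of the genes used to cluster, so the 10 genes took no direct part in it. Clusters 0 and 5 (267 and 361 cells) were granulocyte precursor-like, with Elane, Ctsg and Mpo raised, cluster 10 (702 cells) was monocyte-like, with Csf1r, Ccr2 and Fn1 raised, and cluster 11 (263 cells) was neutrophil-like, with S100a8, Ngp and Ltf raised. The rest are called by number. Cycling cells were most frequent in cluster 4, led by Hist1h2ap, cluster 2, led by Cenpa, and cluster 7, led by Ung. Cells of neither state made up 18.1% of cluster 7, 7.78% of cluster 2 and less of cluster 4, and 63.1% of cluster 2 was G2M-high only. Cluster 13, with 36 cells, 18 in each of suffixes 3 and 4, was led by the interferon-induced gene Ifit3.

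Samhd1 was highest in the interferon-led cluster and lowest in clusters 4 and 7, which hold many cells high in both cycle lists. It stood at 832 CPM in cluster 13 (675 to 1013, from 98 UMIs), 209 CPM in the monocyte-like cluster 10, 171 CPM in cluster 12 (led by Cd74) and 104 CPM in cluster 9 (led by Tsc22d1). Clusters 10 and 12 had overlapping intervals, and the lowest levels were 32.0 CPM in cluster 7 and 21.5 CPM in cluster 4. The mostly G2M-high cluster 2 stood at 42.4 CPM, and the interval of cluster 7 overlapped those of clusters 2, 5, 0 and 11. Rrm2 ran the other way at the ends of this order, at 386 CPM in cluster 4, 250 CPM in cluster 7 and 0 UMIs in cluster 13. The 0 in cluster 13 allows up to 25.5 CPM of Rrm2. Rrm1 was likewise highest in cluster 4 (209 CPM) and cluster 7 (139 CPM).

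Dck was high in clusters 4 and 7 but not in cluster 2, which cycled as well, and it was highest in the interferon-led cluster. It stood at 67.9 CPM in cluster 13, from 8 UMIs with an interval of 29.3 to 134, then at 23.6 CPM in cluster 4, 19.8 CPM in cluster 7 and 17.2 CPM in the neutrophil-like cluster, the last 3 with overlapping intervals. The neutrophil-like interval (11.4 to 24.8) also overlapped those of granulocyte precursor-like clusters 5 (14.4 CPM) and 0 (10.9 CPM) and monocyte-like cluster 10 (13.7 CPM). Dck did not tell these named clusters apart. Its level was 3.7 CPM in cluster 2 and 2.7 CPM in cluster 9, where few cells cycled. Slc29a1 stood at 77.4, 71.9, 68.5 and 67.2 CPM in clusters 7, 8, 4 and 0, not told apart from each other, and at 38.2 CPM or less in the other 10. Nme1 and Dctd were both highest in granulocyte precursor-like cluster 0, at 750 CPM and 38.8 CPM over all its cells. Nearly all of these cells lay in suffixes 1 and 2, where both genes were higher over all kept cells than in suffixes 3 and 4. Within single clusters Dctd did not always keep that order of suffixes. Within suffix 1, cluster 0 stood at 734 CPM of Nme1 and cluster 7 at 680 CPM, and Dctd stood at 40.1 and 36.4 CPM, with overlapping intervals for both genes. Within suffix 2 the Nme1 level of cluster 0 was 767 CPM and that of cluster 7 658 CPM, with intervals that did not meet, and the Dctd intervals overlapped (38.2 and 30.7 CPM). Cmpk1 lay between 125 and 221 CPM and Nt5c2 between 8.5 and 34.4 CPM over all 14 clusters. Each cluster's interval for these genes overlapped the next in order. The 8.5 CPM of Nt5c2 was that of the small cluster 13, with an interval of 0.215 to 47.3, and the next lowest cluster stood at 24.4 CPM. Clusters further apart in the Cmpk1 order did not all overlap. Cluster 4 stood at 194 CPM (181 to 207), clear of the neutrophil-like cluster at 125 CPM (109 to 144).

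**Figure D3:**
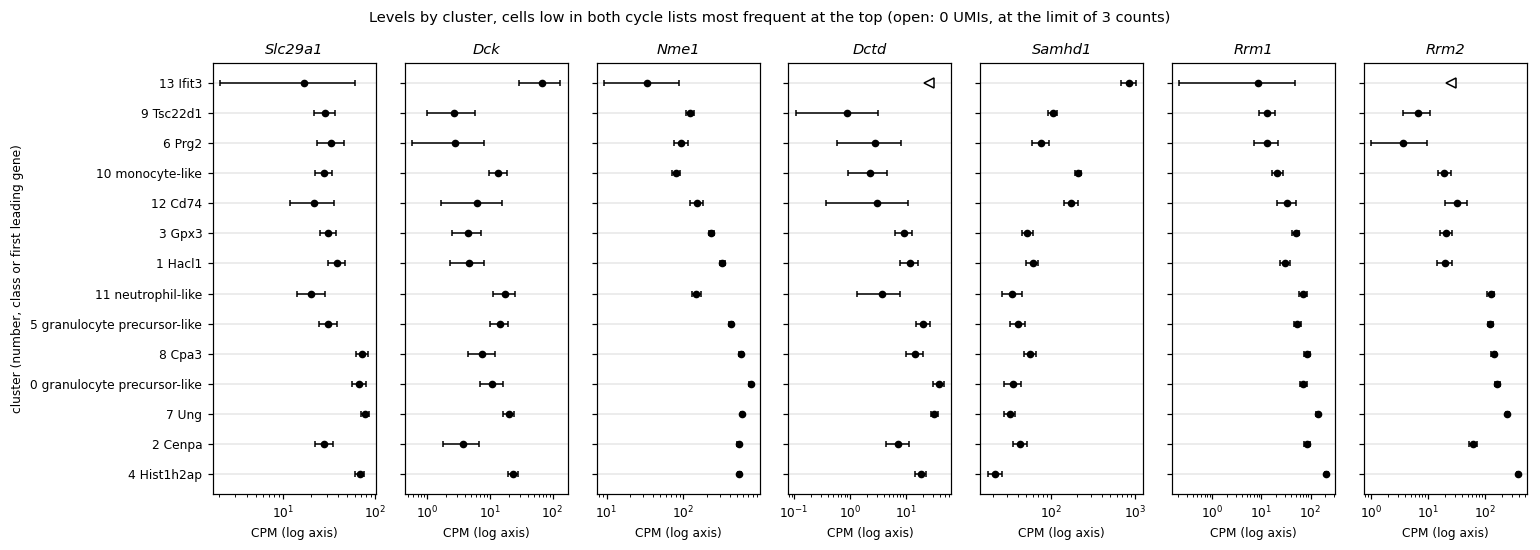
Level of 7 of the genes (CPM, log axes) in each of 14 clusters, named by number with class or leading gene and ordered with the largest share of cells low in both cycle lists at the top; bars are exact Poisson 95% intervals pooled over suffixes and open triangles mark 0 UMIs drawn at the limit of 3 counts. Samhd1 was at 832 CPM in cluster 13 and 21.5 CPM in cluster 4, where Rrm2 was at 0 UMIs and 386 CPM.

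In monocyte-like cells against the other cells of suffixes 3 and 4, 1 of the 10 genes was higher and 4 lower, where 10.2% of genes were higher and 12.9% lower. The other cells include clusters 12 and 13, in which 9 and 12 monocyte markers were also raised. Samhd1 stood at 222 and 193 CPM in monocyte-like cells of suffixes 3 and 4, against 57.5 and 58.9 CPM in the other cells, with log2 ratios of 1.93 and 1.69. These levels did not overlap, a trait for which no share of all genes is given. Nme1 stood at 78.3 CPM in monocyte-like cells and 276 CPM in the others (median -1.80), and Dctd had 6 UMIs in monocyte-like cells and 181 in the others (median -2.12). Rrm1 stood at 21.3 CPM in monocyte-like cells and 84.2 CPM in the others (-1.93), and Rrm2 at 19.7 and 114 CPM (-2.46).

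Cycling moved with this comparison, since in suffixes 3 and 4 together 92.3% of monocyte-like cells and 64.0% of the other cells were in neither state. With both sides limited to neither state, Samhd1 stood at 218 CPM in monocyte-like cells and 81.7 CPM in the others, a median log2 ratio of 1.39, and was still counted. Rrm1 (-0.60) and Rrm2 (-1.10) were then no longer counted, while Nme1 (-1.50) and Dctd (-1.78) were. Dck became higher, at 14.6 CPM from 39 UMIs in monocyte-like cells and 3.87 CPM from 31 UMIs in the others, with 1.37 and 2.07 in the 2 suffixes. Over all states it had been 0.28. In this limited comparison 7.18% of all genes were higher and 7.69% lower, and it was added after the first values were seen.

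In neutrophil-like cells against the other cells of suffixes 3 and 4, 0 of the 10 genes were higher and 3 lower, where 4.77% of genes were higher and 22.7% lower. Samhd1 stood at 33.2 and 32.8 CPM in neutrophil-like cells of suffixes 3 and 4, against 90.6 and 83.2 CPM in the others, with log2 ratios of -1.42 and -1.32. The others include the monocyte-like cells, at 209 CPM over all suffixes. The low level was not particular to neutrophil-like cells. Over all suffixes their cluster stood at 34.4 CPM, and its interval overlapped those of granulocyte precursor-like clusters 5 (39.8 CPM) and 0 (35.0 CPM). Nme1 stood at 146 CPM in neutrophil-like cells and 253 CPM in the others (-0.79), and Dctd at 3.89 and 10.7 CPM (-1.51, from 6 UMIs, with -0.90 and -2.12 in the 2 suffixes). Rrm1 (-0.08), Rrm2 (0.36) and Dck (0.65) were not counted. The median of all genes was -0.39 here and was moved by 0.27 with TMM factors and by 0.31 with median of ratios factors. Under these, Nme1 was no longer counted (-0.51 and -0.47), Dck was counted higher (0.91 and 0.95), and Rrm1 turned to 0.20 and 0.23, whereas Samhd1 remained lower (-1.09 and -1.05).

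With both sides of neither state, neutrophil-like cells again had lower Samhd1 (39.6 against 122 CPM, -1.56), with 4.38% of all genes higher and 25.3% lower. The others again included monocyte-like cells. Slc29a1 stood at 9.61 CPM from 8 UMIs in neutrophil-like cells and 27.6 CPM in the others (-1.39), and Cmpk1 at 101 and 177 CPM (-0.78), and both were counted lower. Nme1 (-0.57) and Dctd (-0.15) were not.

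In granulocyte precursor-like cells against the other cells in all 4 suffixes, 1 of the 10 genes was higher and 0 lower, where 1.25% of genes were higher and 4.87% lower. Dctd stood at 35.4, 28.7, 18.1 and 19.8 CPM in granulocyte precursor-like cells of suffixes 1 to 4, against 20.1, 15.6, 9.87 and 9.27 CPM in the others, with a median log2 ratio of 0.83. The class was above the other cells in each suffix, but its levels in suffixes 3 and 4 lay below that of the other cells in suffix 1. That call was lost under each of 5 other clusterings, with 0.50 at resolution 0.5, 0.58 at resolution 2 and -0.070 with no filter on cells, and with cells thinned to 2000 UMIs (0.68). Rrm1 (-0.81) and Samhd1 (-0.64) did not meet the rule in every suffix, and without suffix 1 Rrm1 was counted lower at -0.99. With both sides of neither state, Dctd (1.41) and Rrm2 (1.03) were higher and Samhd1 (-1.05) lower, with 1.58% of all genes higher and 6.24% lower. With both sides S-high or high in both lists, which only suffixes 1 and 2 could fill, 0 of the 10 genes were higher or lower in granulocyte precursor-like cells, where 2.34% of genes were higher and 5.8% lower. The same limit left only suffix 3 for neutrophil-like cells, with 2 of the 10 genes higher and 4 lower where 12.4% of genes were higher and 40% lower, a count with no second suffix behind it.

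**Figure D4:**
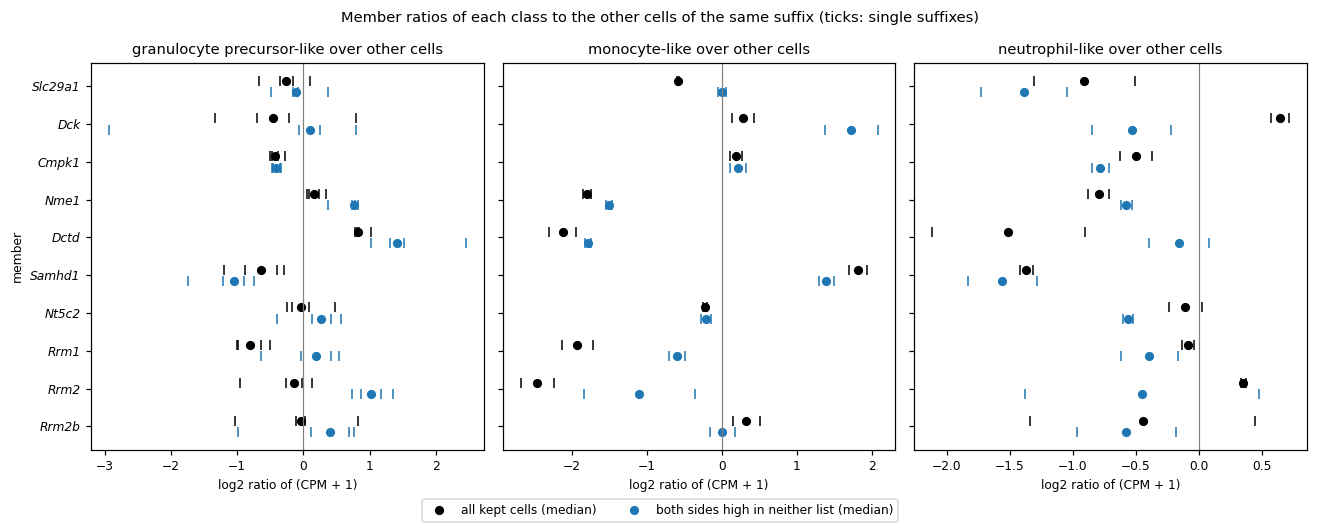
Log2 ratio of (CPM + 1) in granulocyte precursor-like (left), monocyte-like (middle) and neutrophil-like (right) cells over other cells within a suffix; circles are medians, ticks are single suffixes (4 on the left, suffixes 3 and 4 elsewhere), black for all kept cells and blue for both sides high in neither cycle list. Samhd1 lay at 1.81 in monocyte-like and -1.37 in neutrophil-like cells, and Dck in monocyte-like cells at 0.28 in all and 1.72 in neither-state cells.

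By class, genes of the pathway list were counted in both directions. In monocyte-like cells 2 of its 36 genes were higher and 15 lower, where 10.2% of all genes were higher and 12.9% lower. The list's median log2 ratio was -0.51 against -0.03 for all genes. The higher ones in the list were Samhd1 and the intracellular transporter Slc29a3 (0.97), and the lower ones were led, outside the 10 genes, by Tk1 (-2.59), Dut (-2.08), Tyms (-1.99) and Ctps (-1.80). In neutrophil-like cells 2 were higher, Nme6 (1.44) and the mitochondrial thymidine kinase Tk2 (0.77), and 11 lower, among them Nt5c3b (-2.28), Slc29a3 (-1.73), Cad (-1.48) and Dhodh (-1.42), where 4.77% of all genes were higher and 22.7% lower and the list's median was -0.47 against -0.39 for all genes. That split was 3 higher and 7 lower with TMM factors and 4 higher and 5 lower with median of ratios factors. Shares over all genes were not computed under these factors, so these splits have no yardstick. In granulocyte precursor-like cells Nme6 (0.96) and Dctd were higher and Slc29a3 (-1.48) lower, where 1.25% of all genes were higher and 4.87% lower.

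The ratio of Dck to Samhd1 UMIs sets the activating kinase beside the triphosphohydrolase, and only its change between sets of cells is read. It was 0.277, 0.294, 0.129 and 0.153 in suffixes 1 to 4, with suffixes 3 and 4 low. By cycling state it was 0.299 in S-high cells (0.229 to 0.386), 0.917 in cells high in both lists (0.749 to 1.12), 0.266 in G2M-high cells and 0.0624 in cells of neither state (0.0503 to 0.0766). Within cells of neither state the suffixes were at 0.0556, 0.109, 0.0574 and 0.0556, with overlapping intervals in all pairs. By class it was 0.341 in granulocyte precursor-like cells (0.251 to 0.458) and 0.0654 in monocyte-like cells (0.0467 to 0.0894). Neutrophil-like cells held 28 Dck and 56 Samhd1 UMIs, an interval of 0.306 to 0.801. Cluster 4 stood at 1.10 and cluster 9 at 0.0256.

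**Figure D5:**
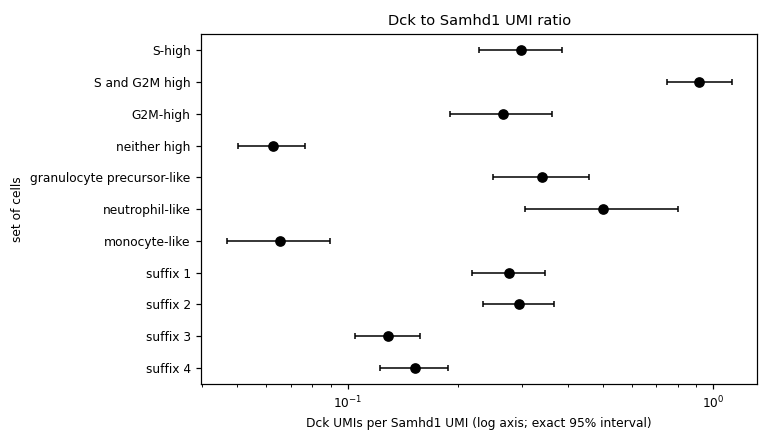
Dck UMIs per Samhd1 UMI (log axis) with exact conditional binomial 95% intervals in cells grouped by cycling state, by class and by barcode suffix. Cells high in both cycle lists stood at 0.917, and cells of neither state (0.0624) and monocyte-like cells (0.0654) stood lowest.

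Samhd1 was followed over UMIs of 17 interferon-induced genes, a list drawn up after cluster 13 had been seen. In cells with 0, 1, 2 to 3, 4 to 6 and 7 to 44 such UMIs, Samhd1 stood at 58.1, 62.0, 75.3, 215 and 714 CPM. The last bin held 46 cells. Leaving out cluster 13 took no cell from the first 3 bins and left 53 of 56 cells in the bin of 4 to 6, at 190 CPM. The rest of its binned cells lay in the last bin, so the 714 CPM is not independent of the level of cluster 13. Inside the monocyte-like class it stood at 193, 218 and 191 CPM in the first 3 bins, which did not differ beyond their intervals. Outside that class and cluster 13 it stood at 45.9, 48.5, 56.4 and 120 CPM, the last from 17 UMIs with an interval of 69.6 to 191. Summed monocyte markers were also high in cluster 13, at 27587 CPM there and 7534 CPM in the other cells, as were MHC class II and dendritic cell markers at 2189 and 141 CPM, and their part in its Samhd1 level was not tested. Cmpk1 stood at 221 CPM in cluster 13, with an interval of 144 to 323 that overlapped that of every other cluster but the neutrophil-like one.

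Likeness of pattern was measured by Pearson's r of log2(CPM + 5) over 37 cluster-by-suffix sets of at least 30 cells among 4687 genes with at least 20 CPM. These sets share libraries and depth, so r is a description. Rrm2 was like 2810417H13Rik (0.95), and Rrm1 was most like 2810417H13Rik (0.95), Tuba1b and Cenph (0.94 each). Samhd1 was most like Evi2a (0.95), Unc119 and Tprgl (0.90 each), and Nme1 like Erh, Hsp90aa1 and Park7 (0.98 each). Slc29a1 was most like Sumo2, Rfc2 and Dhodh (0.80 to 0.81), Cmpk1 like Tpm4, Sdhb and S100a10 (0.82 to 0.84), and Nt5c2 like Prpf4b, Vdac2 and Guf1 (0.52 to 0.65). Among the genes themselves, Rrm1 and Rrm2 were at 0.89, Samhd1 and Rrm1 at -0.80, Samhd1 and Nme1 at -0.73, and Cmpk1 was within 0.27 of 0 with every other member measured.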

How the data were processed

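The authors deposited raw UMI counts, whole and not normalized, for each gene in each barcode. Libraries were 10x Chromium 3' V2, per the labels' protocols. Reads were processed with Cell Ranger 1.3 against mm10 and with Seurat 2.3.4, per the submitters' processing notes, while Seurat 1.4 stands in the design text. Genes were counted on an annotation not given in the sources used here. Gene positions come from a GRCm38 GENCODE annotation matched by symbol.

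Of 5664 barcodes, 5456 were kept (at least 500 UMIs, at most 10% mitochondrial), with 7644436 to 9932649 UMIs per suffix. For a gene with 0 UMIs, 3 counts were taken as the limit, 0.302 to 0.392 CPM by suffix. Counts were summed over cells and scaled to CPM, with exact Poisson 95% intervals. Sets of cells were compared within each suffix as log2((CPM + 1)/(CPM + 1)), and the median over suffixes is given. Cells are not replicates and suffixes carry no condition, so no p-value was computed. Clusters came from 2000 variable genes without the 53 pathway genes, 30 principal components, 15 neighbours and Leiden resolution 1 in scanpy 1.11.5 (Python 3.11.15). A cluster was named where at least 3 markers of a type, more than of any other, were 2-fold raised at 20 CPM and also led among its top 10 genes by fold. Scrublet marked 27 of 5456 cells (0.495%), a share taken to mean that it had not worked, and no doublets were removed. TMM factors came from edgeR 4.0.16, used for an alternative only. The comparison code was tested on simulated data.

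The members and lists were chosen with earlier results of these data known. Named are all 10 members, the pathway genes counted in a comparison (at most the 8 with the largest size) and, for members with at least 20 CPM, the 3 genes most alike, of which some are not reported here. Uckl1, Slc29a3 in monocyte-like cells and Tk2 fall outside that rule. Chosen after values were seen were the naming rule, the bins, the interferon list, the comparisons within a cycling state, the 5 motifs and the 7 genes of the cluster plot. In all 12 comparisons of cells were set up, and 11 had a usable suffix.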

Additional observations from a re-analysis of the deposited data

How the results depend on the processing

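The limits are these. Suffixes have no condition and no replicate, so nothing here separates genotype, treatment or animal. Depth limits Dck, Dctd and Rrm2b, which rest on few UMIs in many sets. Class membership shifts with the clustering: monocyte-like cells numbered 323 to 652 over the other clusterings, against 702. No paired test was made, because the suffixes are unassigned samples of unlike conditions. Ratios were taken within a suffix and were not tested.

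Of the 36 pathway genes, 12 were counted in S-high cells, with 19 at 1.2-fold and 6 at 2-fold. In granulocyte precursor-like cells 3 were counted, with 1 at a 20 CPM filter, 8 at 1.2-fold, 0 at 2-fold, 1 after thinning, and 5 each with the pathway list among the variable genes, with the S and G2M lists out of them, with no filter on cells and within neither state. In monocyte-like cells 17 were counted, with 11 within neither state. In neutrophil-like cells 13 were counted, with 7 at a 20 CPM filter, 21 at 1.2-fold and 5 at 2-fold. Leaving out a suffix gave 12 to 16, 3 to 4, 17 to 22 and 13 to 19 genes in these 4 comparisons. Shares over all genes were not computed for the alternative settings, except within neither state, so these counts have no yardstick. The Dctd ratio in granulocyte precursor-like cells turned to -0.070 with no filter on cells, when that class held 170 cells, and the cause was not tested. Of 610 other values of member ratios, 484 moved by less than their counting interval and 125 by more. The remaining 1 belonged to a gene counted in the main setting and turned sign. Turns of genes not counted there were not tallied apart. Levels by suffix kept within their interval in 97 of 120 cases, levels within a state in 44 of 80, and the ratio of Dck to Samhd1 in 4 of 4. Rrm1 and Rrm2 remained higher in S-high cells under each of 17 alternative settings. Against the other cells, Samhd1 remained higher in monocyte-like and lower in neutrophil-like cells under each of 20. The comparisons within neither state and without the interferon-led cluster were added after seeing the data.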
